A study of Rattus norvegicus with 24 samples.

Results

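The genes described here are Il1rl2, Il18r1 and Nlrx1, 3 of the 32623 genes counted in whole carotid bodies (CBs) of hypertensive and normotensive rats. They were chosen as the rows whose Ensembl identifiers Data Set 1 of the study pairs with those symbols, and the portion of Data Set 1 used here holds genes higher in the hypertensive strain. Their strain differences were therefore part of the choice and are given as a description, with no test. The ligand Il18 and the co-receptor Il18rap, named through the same list, are shown beside them on the same terms. The left and right CBs of 6 male WKY/NHsd rats, the normotensive Wistar-Kyoto strain, and of 6 male SHR/NHsd rats, the spontaneously hypertensive strain, were sequenced as polyadenylated RNA, 1 library a CB. All rats were 12 to 14 weeks old, were perfused with ice-cold saline and carried no transgene or drug treatment in the labels. The strains differ in more than blood pressure, so strain and hypertension cannot be told apart in these groups.

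The carotid body is a small chemosensory organ at the fork of the common carotid artery, in which glomus cells sense blood oxygen and sit among vessels, macrophages and connective tissue. Interleukin-18 is a cytokine of the interleukin-1 family that is made as an inactive precursor and, once cleaved and released, binds IL18R1, the product of Il18r1, which then recruits the accessory chain encoded by Il18rap to signal through MyD88 and NF-kB. Il1rl2 encodes the ligand-binding chain of the receptor for the interleukin-36 cytokines, which is best known in skin and other barrier tissues. Nlrx1 encodes a member of the NOD-like receptor family that is found in mitochondria and is known as a modulator of antiviral and NF-kB signaling.

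Total counts ran from 9198341 to 13655419 per library over the 24 libraries. The study left the right CB of SHR rat 34 out of its comparison, and 23 libraries form the main set here. That library stood apart: 11.8% of the tested genes differed more than 4-fold between the CBs of that rat, against 0.0281% to 0.814% in the other 11 rats. The glomus cell markers paired with a symbol (Dbh, Chga, Chgb and Ret, 4 of 10 listed) summed to 921 to 1393 CPM (counts scaled to library size) in the WKY libraries and 1154 to 2021 CPM in the 11 SHR libraries, and to 77.0 CPM in the right CB of SHR rat 34. In whole CBs, fewer cells of a type and less RNA per cell cannot be told apart.

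Promoter sequences of the 3 genes are shown so that the regions around their starts can be compared. They are RefSeq sequences of assembly GRCr8, from 250 bases before to 50 bases after the annotated start, written 5′ to 3′ on the strand of the gene. They come from the reference rat, not from WKY or SHR animals, and 5 of the 6 genes looked up had an entry (Il18rap had none). Capitals mark a GC box (GGGCGG, read on either strand as GGGCGG or CCGCCC) or the hypoxia response core ACGTG.
Il1rl2, chr9:50087302-50087601, plus strand: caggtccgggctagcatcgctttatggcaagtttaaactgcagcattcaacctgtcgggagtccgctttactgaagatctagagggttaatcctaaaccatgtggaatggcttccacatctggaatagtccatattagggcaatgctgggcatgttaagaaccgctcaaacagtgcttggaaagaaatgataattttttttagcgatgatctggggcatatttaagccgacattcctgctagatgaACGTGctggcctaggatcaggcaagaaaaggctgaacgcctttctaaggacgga
Il18r1, chr9:50223241-50223540, plus strand: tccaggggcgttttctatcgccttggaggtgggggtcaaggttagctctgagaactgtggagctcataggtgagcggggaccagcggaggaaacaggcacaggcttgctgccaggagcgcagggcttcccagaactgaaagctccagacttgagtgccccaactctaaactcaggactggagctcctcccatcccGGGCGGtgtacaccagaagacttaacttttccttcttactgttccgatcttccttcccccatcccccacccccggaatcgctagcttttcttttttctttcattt
Nlrx1, chr8:53503244-53503543, minus strand: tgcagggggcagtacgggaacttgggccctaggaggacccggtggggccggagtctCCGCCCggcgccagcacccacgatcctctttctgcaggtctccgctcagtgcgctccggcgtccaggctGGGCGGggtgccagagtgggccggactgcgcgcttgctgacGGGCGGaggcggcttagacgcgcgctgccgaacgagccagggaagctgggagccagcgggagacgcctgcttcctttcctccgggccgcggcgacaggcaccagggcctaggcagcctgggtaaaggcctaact

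The 3 windows differed in base composition. The Nlrx1 window had 71.0% G and C and 29 CpG dinucleotides, the Il18r1 window 55.0% and 10, and the Il1rl2 window 46.0% and 10, beside medians of 51.7% and 7 over the 33469 promoters of the table. The G and C content of Nlrx1 was above that of 93.0% of all promoters. Nlrx1 held 3 GC boxes, and Il18r1 held 1 GC box 55 bases before its start. A GC box was present in 33.1% of all promoters. Il1rl2 held no GC box and 1 ACGTG core, starting 4 bases before the start, and 19.3% of all promoters held that core. None of the 3 windows held a TATA box (TATAAA, 14.2% of promoters), an AP-1 site (TGANTCA, 7.33%), an interferon response element (3.92%) or an NF-kB site (7.51%), each searched on both strands. The Il18 window held 1 AP-1 site, starting 5 bases after the start, and had 39.3% G and C.

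The ligand had the widest gap between the strains among the interleukin-18 genes. Il18 (ENSRNOG00000009848) had 88 counts at the lowest, 143 at the median and 183 at the highest of the 12 WKY libraries, and 243, 359 and 527 in the 11 SHR libraries. The strain groups did not overlap. After scaling for library size (TMM-normalized CPM) and averaging the sides of a rat, Il18 was at 14.3 ± 2.20 CPM in WKY rats (SD, n = 6) against 35.8 ± 5.09 CPM in SHR rats (SD, n = 6). The edgeR fit over all genes gave a log2 fold change of 1.33 (SE 0.0983). Here and for the genes below, that strain fit treats the CBs of 1 rat as separate samples.

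Il18r1 (ENSRNOG00000015027), the chain that binds the ligand, had 45, 57 and 87 counts at the lowest, median and highest WKY library and 84, 114 and 152 at the SHR libraries. Its level was 6.26 ± 1.06 CPM in WKY rats (SD, n = 6) against 11.2 ± 1.06 CPM in SHR rats (SD, n = 6). All 11 SHR libraries lay above all 12 WKY libraries, from 8.77 to 13.4 CPM against 4.47 to 8.44 CPM. The log2 fold change was 0.82 (SE 0.114).

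Il18rap (ENSRNOG00000054218), the accessory chain without which the receptor does not signal, had 846, 1450 and 1748 counts at the lowest, median and highest WKY library and 2014, 2653 and 3435 at the SHR libraries. The strain groups again did not overlap in any of the 23 libraries. Il18rap was at 142 ± 10.2 CPM in WKY rats (SD, n = 6) against 254 ± 31.7 CPM in SHR rats (SD, n = 6), and its log2 fold change was 0.81 (SE 0.0725). Both chains of the receptor thus differed between the strains by nearly the same ratio of rat means, 1.79 for each, while the ligand had a ratio of 2.50.

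Il1rl2 (ENSRNOG00000014683), the interleukin-36 receptor chain, was the member with the fewest reads and the most uneven level. Counts were 1, 6 and 13 at the lowest, median and highest WKY library, with 4 of 12 libraries at 3 counts or fewer, and 7, 21 and 55 at the SHR libraries. Il1rl2 was at 0.575 ± 0.257 CPM in WKY rats (SD, n = 6) against 2.29 ± 1.03 CPM in SHR rats (SD, n = 6), with a log2 fold change of 1.99 (SE 0.346). Unlike the other 2 members, its rats overlapped: SHR rat 36, at 0.789 CPM, lay below the highest WKY rat, at 0.855 CPM, and the other 5 SHR rats and 8 of 11 SHR libraries lay above every WKY value. With a mean of 5.75 counts in WKY, Il1rl2 reached the minimum mean of 10 normalized counts only through the SHR libraries.

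Nlrx1 (ENSRNOG00000052386) had 140, 187 and 295 counts at the lowest, median and highest WKY library and 215, 261 and 465 at the SHR libraries. It had the smallest difference of the 3 members, 18.9 ± 2.03 CPM in WKY rats (SD, n = 6) against 26.3 ± 1.55 CPM in SHR rats (SD, n = 6), and its log2 fold change was 0.49 (SE 0.0775). The rats did not overlap, at 16.6 to 22.4 CPM in WKY and 24.2 to 28.2 CPM in SHR, but single libraries did. Only 4 of 11 SHR libraries lay above all 12 WKY libraries, because the right CB of WKY rat 41 reached 26.3 CPM. The other 11 WKY libraries ended at 20.6 CPM, below the lowest SHR library at 22.6 CPM.

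**Figure D1:**
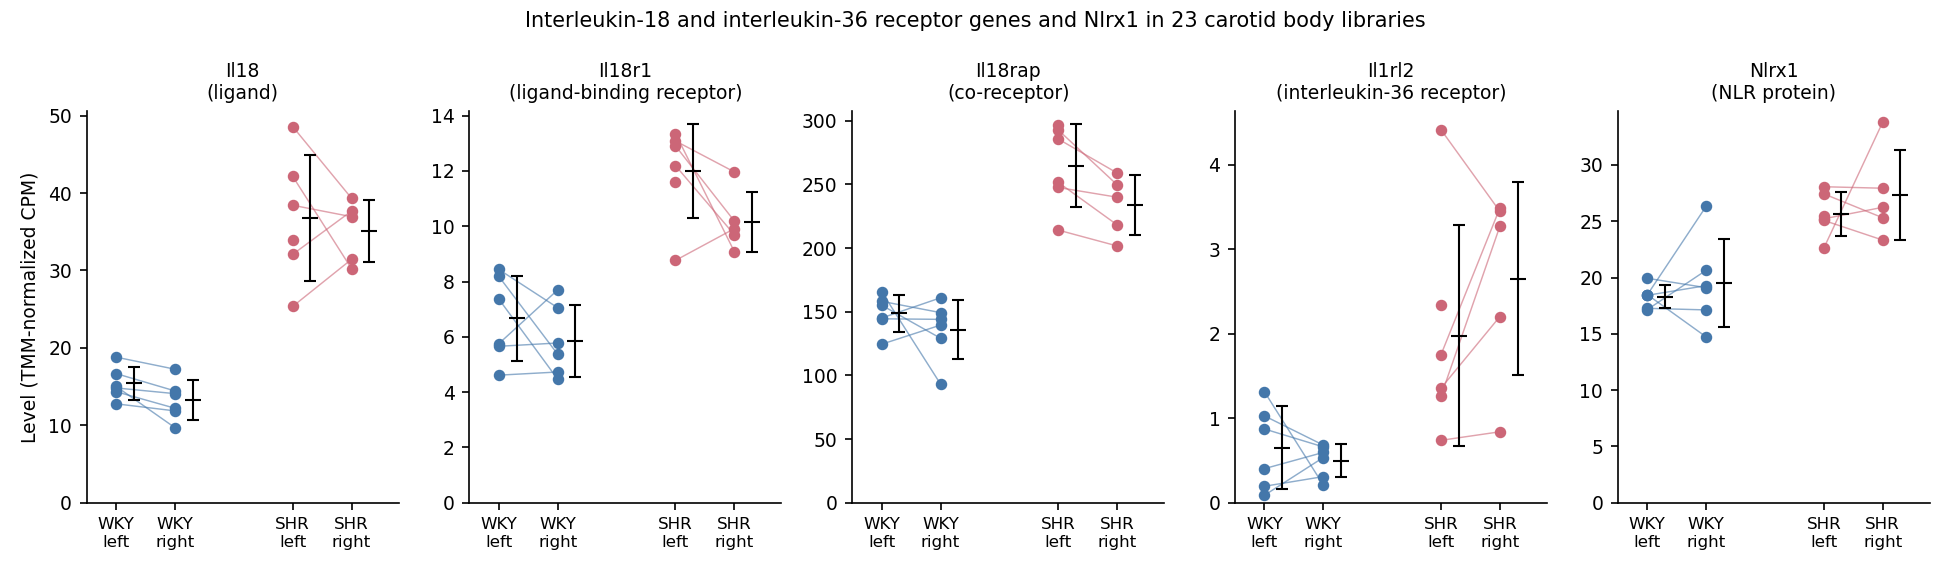
Levels of the ligand, both receptor chains, Il1rl2 and Nlrx1 in TMM-normalized CPM (vertical axes, each starting at 0) in the left and right CBs of WKY (blue) and SHR (red) rats. Each point is 1 library, thin lines join the CBs of 1 rat, and black bars give the mean and SD of a group. Il18r1 ran from 4.47 to 8.44 CPM in WKY and from 8.77 to 13.4 CPM in SHR with no overlap, while Il1rl2 and Nlrx1 libraries overlapped.

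Among the 1273 genes that Data Set 1 pairs with a symbol, whose log2 fold changes ran from 0.271 to 9.36 with a median of 0.414, Il1rl2 ranked 27, Il18r1 170 and Nlrx1 481. All 3 members passed the adjusted p threshold in the fit over all genes, where 10.2% of 14253 genes were called higher in SHR and 9.84% lower. That fit called 2861 genes in either direction with the CBs of 1 rat as separate samples. With counts summed per rat, 2039 of 15093 genes were called, and with the rat as a random block 2299 of 14253. Il1rl2 was not called with the left CBs alone, nor Nlrx1 with the right CBs alone. Rats did not overlap, with SHR higher, in 3.39% of tested genes (2 of 3 members; 7.07% in either direction), and libraries did not overlap in 0.926% (1 of 3 members, Il18r1). Since the members were picked on this contrast, these counts only place them. The median log2 fold change was 0.82 over the 3 members and 0.0060 over all tested genes.

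The spread of the members was described between and within rats on the log2(CPM + 0.5) scale. The SD within a rat is that of a single CB, while rat means average 2 CBs, so these SDs are not directly comparable. In SHR both come from the 5 rats with both sides. For Il1rl2 the SD of rat means was 0.353 in WKY and 0.648 in SHR, and the SD within a rat was 0.484 and 0.479. Its biological coefficient of variation in the edgeR fit was 47.4%, against 35.1% on the trend at its mean count, and 97.5% of tested genes had a lower one. Counting error alone gave Il1rl2 a coefficient of variation of 41.7% at its mean count in WKY and 20.1% in SHR, against an observed 63.7% and 53.6% over libraries. Il18r1, with 17.0% against 22.9% on the trend, and Nlrx1, with 12.2% against 15.1%, lay under the trend. For Nlrx1 the SD within a rat was 0.189 in WKY and 0.187 in SHR, and the SD of rat means was 0.143 and 0.0835.

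The side of the body played no part in the choice of the members, so left and right CBs could be tested. Across all genes, edgeR called 0 of 14237 genes (0%) between sides in WKY and 0 of 14190 (0%) in SHR, with 284 (1.99%) and 781 genes (5.5%) at an unadjusted p under 0.05, and DESeq2 also called 0 in each strain. That fit treats the CBs of 1 rat as separate samples. With the rat as a block, 1 gene was called in SHR, none of the members, and 0 in WKY, with 1087 and 372 genes at an unadjusted p under 0.05. Il18r1 was at 6.67 ± 1.55 CPM (SD, n = 6) in left and 5.85 ± 1.29 CPM (SD, n = 6) in right WKY CBs, and its log2 difference of right minus left was -0.19 (95% interval -0.590 to 0.207). In SHR it was at 12.0 ± 1.70 CPM (SD, n = 6) and 10.2 ± 1.08 CPM (SD, n = 5), a difference of -0.25 (-0.549 to 0.0583), with the right CB lower in 4 of the 5 rats that have both sides. Neither interval excludes 0, and the exact sign-flip p over rats was 0.375 in WKY and 0.188 in SHR.

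Il1rl2 in SHR had 13 counts in the left and 22 in the right CB of rat 30, 12 and 45 in rat 31, 19 and 39 in rat 33, 7 and 8 in rat 36, and 55 and 32 in rat 37. The right CB was thus higher in CPM in 4 of 5 rats and lower in rat 37. The log2 difference was 0.40 (95% interval -0.471 to 1.27, adjusted p = 0.897, edgeR), and the exact sign-flip test over the 5 rats gave p = 0.188, where 0.0625 is the smallest p possible. In WKY, where the gene fell under the count minimum, the right CB was higher in 3 of 6 rats, and the fit without a minimum gave -0.36 (-1.56 to 0.838).

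Nlrx1 had the narrowest side intervals of the 3 members. Right minus left was 0.10 (95% interval -0.150 to 0.341) in WKY and 0.09 (-0.140 to 0.314) in SHR on the log2 scale, with the right CB higher in 3 of 6 and 2 of 5 rats. The exact sign-flip p was 0.625 and 0.875. A difference between sides of more than 0.341 in either direction lies outside these intervals.

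The ligand and the accessory chain had mean levels lower in right than in left CBs in both strains. Il18 was lower in the right CB in 6 of 6 WKY rats (exact sign-flip p = 0.0313, the smallest possible with 6 rats), with a mean right minus left of -0.221 ± 0.198 (SD) on the log2(CPM + 0.5) scale. That p is not adjusted and was the only one under 0.05 among the sign-flip tests of the 5 genes in each strain. In the edgeR fit over all genes the difference was -0.22 (95% interval -0.501 to 0.0689) and was not called, and in SHR the right CB was lower in 3 of 5 rats, with a mean of -0.0594 ± 0.334 (SD). Il18rap was lower in the right CB in 5 of 5 SHR rats (exact p = 0.0625, the smallest possible), with a mean of -0.141 ± 0.0775 (SD), and in 4 of 6 WKY rats, with a mean of -0.144 ± 0.370 (SD). Between the strains these side differences gave an exact permutation p of 0.340 for Il18 and 0.998 for Il18rap. The right CB of WKY rat 36 had the lowest value of both Il18 (88 counts) and Il18rap (846 counts) of the 23 libraries. Its glomus marker sum was 973 CPM against 1283 CPM in its left CB. The lowest WKY sum, 921 CPM, was in the right CB of WKY rat 34, where Il18 was at 14.4 and Il18rap at 140 CPM. The part of the cell makeup in these values was not tested.

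**Figure D2:**
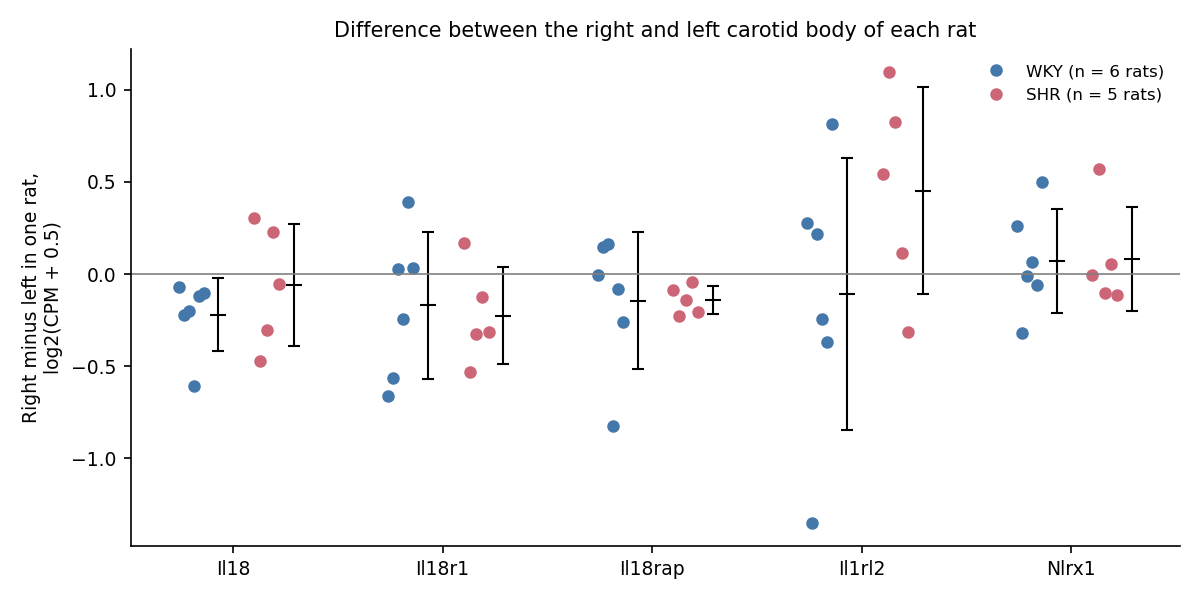
Right minus left CB within each rat on the log2(CPM + 0.5) scale (vertical axis) for 5 genes in 6 WKY rats (blue) and 5 SHR rats (red). Each point is 1 rat, and black bars give the mean and SD over rats. Il18 points of WKY and Il18rap points of SHR all lie below 0, and the points of Il1rl2, Il18r1 and Nlrx1 lie on both sides of 0 in each strain.

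The strain difference was then set side by side for left and right CBs. The log2 fold change of SHR over WKY was 0.85 in left and 0.79 in right CBs for Il18r1, 0.49 and 0.48 for Nlrx1, and 1.62 and 2.38 for Il1rl2. The interaction of strain and side was -0.05 (95% interval -0.530 to 0.430) for Il18r1, -0.0046 (-0.328 to 0.318) for Nlrx1 and 0.76 (-0.687 to 2.21) for Il1rl2, on the log2 scale. The exact permutation p over 11 rats was 0.797, 0.952 and 0.199. Of 14253 genes, 0 (0%) were called by edgeR, 438 (3.07%) had an unadjusted p under 0.05, and DESeq2 also called 0. All 3 intervals hold 0, and that of Il1rl2 is too wide to show whether its strain difference varies with side.

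Whether the members moved together from rat to rat was asked within each strain, over 20 relations of 5 genes in 6 rats. Il1rl2 and Il18r1 in WKY had Pearson's r of 0.834 (exact permutation p = 0.0347) and Spearman's rho of 0.886 (exact permutation p = 0.0333), and r was 0.740 without the 2 rats farthest from the median of Il1rl2. Adjusted over the 20 relations the exact p-values were 0.683 and 0.667, and 0 of 20 relations passed. In SHR the same pair had r of -0.304, and 0.942 without the 2 rats farthest from the median. The receptor chains Il18r1 and Il18rap had r of -0.187 in WKY and 0.647 in SHR (exact permutation p = 0.715 and 0.153), and Il18r1 and Nlrx1 had r of -0.497 and -0.678 (0.318 and 0.129). Without 2 rats in the same way, r became 0.869 and 0.857 for Il18r1 with Il18rap, and 0.0109 and -0.716 for Il18r1 with Nlrx1. The SHR value of Il1rl2 with Il18r1 and the WKY values of Il18r1 with Il18rap and with Nlrx1 thus changed sign with the rats included.

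Over the 23 libraries, after taking out the mean of each of the 4 groups, the highest correlation among the 5 genes was 0.553, between Il18 and Il18rap. The other 9 pairs lay between -0.313 and 0.316, and the points share the library and its depth. Among 1272 other genes with a symbol, the nearest to Il1rl2 were Pard6g (r = 0.734), Asap1 (0.694) and RGD1564606 (0.623). The nearest to Il18r1 were RGD1309779 (0.678), Fam180a (0.602) and Hoxb2 (0.582). Nlrx1 lay nearest to Tor4a (0.679), Dysf (0.626) and Syngr2 (0.623). Over all tested genes, with or without a symbol, the highest r was 0.813 for Il1rl2, 0.747 for Il18r1 and 0.722 for Nlrx1. No gene stood in more than 1 of the lists of named genes, and likeness here is a description with no test.

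Other genes of the interleukin-1 family and the NOD-like receptors were looked up in lists of ligands, receptors, signaling, processing and sensing genes. Symbols were at hand only for genes higher in SHR, so a direction is no finding and a gene without a symbol has no value here. Calls of genes in these lists stand beside the 10.2% of 14253 tested genes called higher in SHR, and nothing is read from them. Of 11 ligands and their inhibitors 1 could be read (Il18), and of 10 receptors 3 (Il1rl2, Il18r1 and Il18rap). Of 22 genes of signaling next to the receptor 5 could be read, and 1 of them was called higher: Birc2, a ubiquitin ligase of NF-kB signaling, at 60.8 ± 4.26 CPM in WKY rats (SD, n = 6) against 74.6 ± 7.68 CPM in SHR rats (SD, n = 6). Nfkbiz, an NF-kB cofactor, had a log2 fold change of 0.27 (SE 0.125), Nfkbid, an inhibitor of the family, 0.38 (SE 0.148), Birc3 0.36 (SE 0.149) and the transcription factor Jun 0.31 (SE 0.149), none of which passed.

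Of 13 NOD-like receptor genes 3 could be read. Beside Nlrx1, Nlrc3 had 3.20 ± 0.462 CPM in WKY rats (SD, n = 6) against 4.20 ± 1.25 CPM in SHR rats (SD, n = 6), and Ciita, the master regulator of class II histocompatibility genes, had 8.34 ± 1.83 and 10.3 ± 1.83 CPM, and neither passed. Of 13 RNA and DNA sensing genes 2 could be read. Sting1, the adaptor of cytosolic DNA sensing, was called higher at 5.79 ± 0.479 CPM in WKY rats (SD, n = 6) against 7.34 ± 0.758 CPM in SHR rats (SD, n = 6), and Irf5 had a log2 fold change of 0.37 (SE 0.163) and did not pass. Of 4 processing genes none could be read.

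Marker genes of the cell types in the CB could be read only where they had a symbol, and so only where they were higher in SHR, which fixes their direction. Their counts called stand beside the 10.2% of all tested genes called higher, and nothing is read from them. The macrophage markers (10 of 14 paired, 10 called higher) summed to 125 to 197 CPM in WKY and 173 to 326 CPM in the 11 SHR libraries, and the T and natural killer lymphocyte markers (9 of 17 paired, 2 called) to 30.6 to 51.3 and 35.5 to 93.0 CPM. The 4 glomus markers were all called higher, as were 3 of 3 paired mast cell markers (1.42 to 3.67 and 3.66 to 24.4 CPM), 4 of 4 endothelial, 1 of 4 smooth muscle, 2 of 4 fibroblast and 2 of 4 adipocyte markers. Their part in the levels of the members was not tested.

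The members differed in the library that the study left out, which was scaled here together with all 24 libraries, so that levels differ slightly from those above. In the right CB of SHR rat 34, Nlrx1 had 200 counts against 228 in the left CB of that rat, 24.8 against 25.3 CPM, a ratio of 0.979 (95% counting interval 0.806 to 1.19). That level lay within the 22.1 to 33.6 CPM of the other SHR libraries and also within the 14.55 to 26.04 CPM of the WKY libraries. Il18r1 had 33 counts against 104, 4.08 against 11.5 CPM, or 2.82-fold lower (counting interval 1.89 to 4.31) and below every WKY library. Il1rl2 had 1 count against 21, a ratio of 0.0532 (0.00129 to 0.331), or 18.8-fold lower (3.02 to 778). These intervals cover counting error only, and 1 library has no replicate.

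The ligand and the accessory chain were lower there as well. Il18rap had 9 counts against 2653, which is 264-fold lower (counting interval 139 to 578), and 0.182% of tested genes had a lower ratio in that rat. Il18 had 15 counts against 304, or 18.2-fold lower (10.8 to 32.8), close to the 18.8-fold of Il1rl2, whose interval is far wider. Beside these values the glomus marker sum was 22.4-fold lower in the right than in the left CB of that rat, macrophage markers were at 179 against 269 CPM, T and natural killer markers at 26.5 against 50.4, endothelial markers at 205 against 342 and smooth muscle markers at 413 against 912. Fibroblast markers were at 554 against 346 CPM, adipocyte markers at 434 against 72.5 and mast cell markers at 35.5 against 3.66. None of the paired markers was at 0 counts. The part of the cell makeup in the members' values was not tested.

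**Figure D3:**
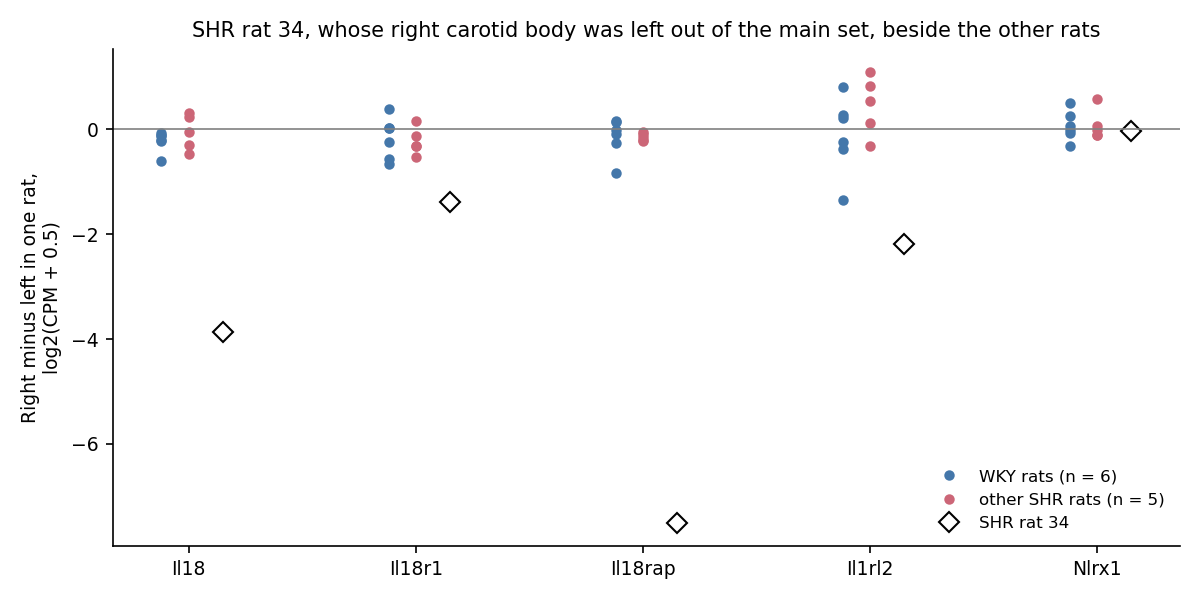
Right minus left CB on the log2(CPM + 0.5) scale (vertical axis) in SHR rat 34 (open diamonds) beside 6 WKY rats (blue) and 5 other SHR rats (red), 1 point a rat. The diamond of Nlrx1 lies at -0.03, among the other rats, while those of Il18r1 (-1.39), Il1rl2 (-2.18), Il18 (-3.86) and Il18rap (-7.51) lie below all of them.

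Il1rl2, Il18r1 and Il18rap are neighbors on chromosome 9 in the RefSeq annotation of GRCr8, in the order Il1r1, Il1rl2, Il1rl1, Il18r1, Il18rap and Slc9a4, and they also stand near each other in the count table. From 5 rows before Il1rl2 to 5 rows after Il18rap, 5 rows without a symbol were tested, and edgeR called 1 higher and 1 lower in SHR. Over all 14253 tested genes, 20.1% were called in either direction. Symbols were at hand only for genes higher in SHR, which tends to remove clearly higher rows from those without a symbol. The row just before Il1rl2 (ENSRNOG00000014504) was called higher by 0.24 (SE 0.0804, adjusted p = 0.033) on the log2 scale, and ENSRNOG00000023129, 4 rows after Il18rap, was lower, at -0.42 (SE 0.0925, adjusted p = 0.00154). ENSRNOG00000014835, which lies between Il1rl2 and Il18r1, had -0.34 (SE 0.260, adjusted p = 0.378). Slc9a4, a sodium-proton exchanger whose row follows Il18rap, was called higher, at 1.36 ± 0.581 CPM in WKY rats (SD, n = 6) against 5.37 ± 0.992 CPM in SHR rats (SD, n = 6). In the right CB of SHR rat 34 Slc9a4 had 0 counts against 37 in the left, and the row ENSRNOG00000015567, 3 rows after Il18rap, had 0 against 478. Other tested rows without a symbol had 4350 against 2667 (ENSRNOG00000014013), 295 against 453 (ENSRNOG00000014504), 19 against 46 (ENSRNOG00000014835) and 71 against 97 (ENSRNOG00000023129).

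Nlrx1 lies on chromosome 8 between Nherf4, which Data Set 1 lists as Pdzd3, and Abcg4. Around its row 6 rows without a symbol were tested and 0 were called by edgeR, at adjusted p-values from 0.0592 to 0.952. The same limit of the symbols holds for these rows, beside the 20.1% of all tested genes called. Pdzd3, a scaffold protein gene, was called higher, at 0.926 ± 0.282 CPM in WKY rats (SD, n = 6) against 1.75 ± 0.320 CPM in SHR rats (SD, n = 6). With a mean of 9.33 counts in WKY, Pdzd3 reached the count minimum only through the SHR libraries. Its rats did not overlap, but only 2 of 11 SHR libraries lay above every WKY library. Abcg4, a lipid transporter gene, was at 5.57 ± 0.849 and 6.84 ± 1.67 CPM with overlapping rats and was not called. In GRCr8 none of the 3 members overlaps another gene, whereas Il18 overlaps 2. The build and strand settings of the count table are not given in the sources used here, so reads of overlapping genes may have been assigned otherwise.

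**Figure D4:**
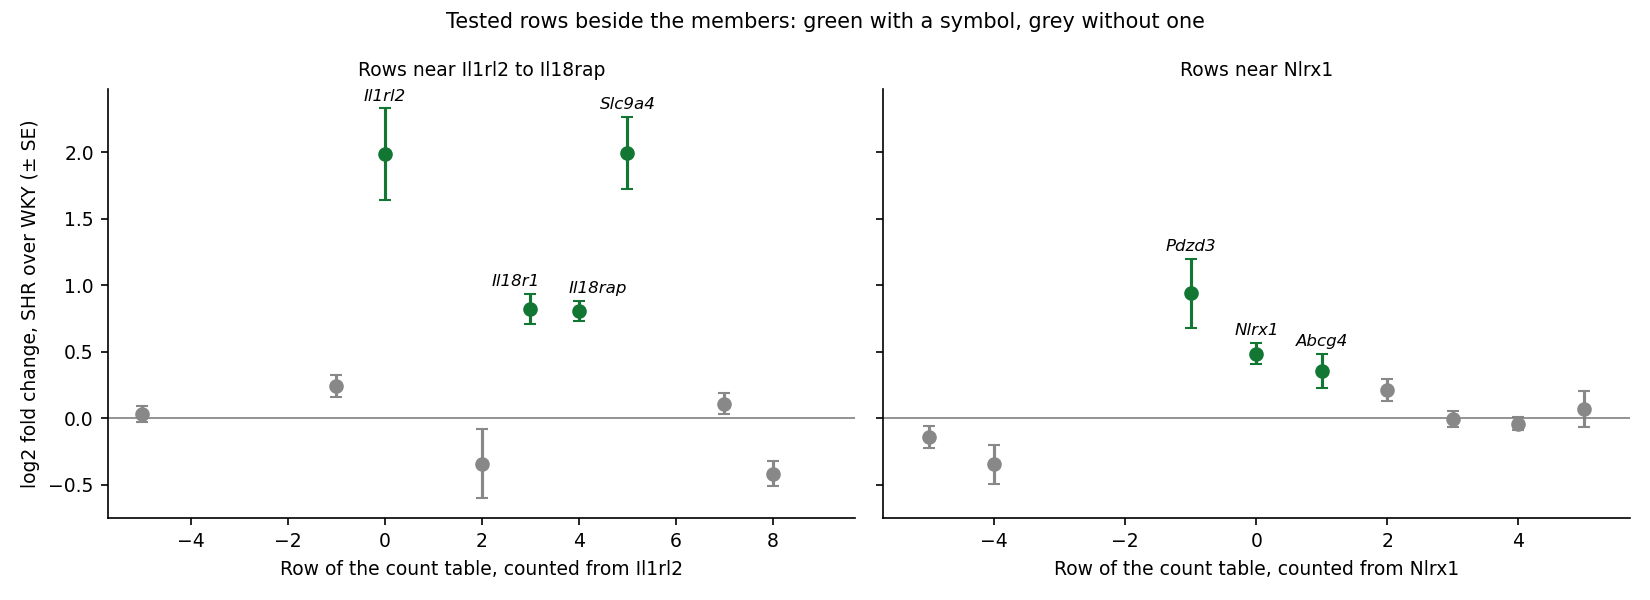
The log2 fold change of SHR over WKY with its SE (vertical axis) for the tested rows beside Il1rl2, Il18r1 and Il18rap (left panel) and beside Nlrx1 (right panel), by row of the count table. Green points carry a symbol and were chosen as higher in SHR, and grey points carry none. Grey points lie between -0.42 and 0.24, below the green points of both panels, an order that follows from that choice.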

How the data were processed

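The authors aligned the reads of 24 CB libraries (stranded poly-A kit) with STAR and deposited the raw counts that featureCounts gave for each Ensembl gene. Versions, build, annotation, strand and multi-mapping settings are not given in the sources used here. Symbols were read from Data Set 1 (1391 rows, 1273 with a symbol), and its fold changes and p-values were not used. The members and lists were chosen with earlier results of these data known.

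Counts of 23 libraries were analysed in R 4.3.3 with edgeR 4.0.16 (TMM, robust quasi-likelihood test, mean normalized count above 10, Benjamini-Hochberg adjustment at 0.05). Side was a covariate of the strain fit, and fits within a strain had none. DESeq2 1.42.0 and limma 3.58.1 were alternatives, as were other scaling, filters and library sets, each side alone, the rat as a block, and fits without single rats. CPM values were TMM-normalized, and the sides of a rat were averaged. Exact sign-flip and permutation tests over rats were two-sided. Intervals are at 95%. Named genes were the members, Il18 and Il18rap, and list genes and row neighbors with a symbol. The 3 genes with a symbol most like each member were also named, by Pearson's r of residuals from group means of log2(CPM + 0.5).

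Over 253 pairs of libraries the chi-square per degree of freedom started at 5, so none was alike within sampling noise. The sides of 1 rat number come from 1 rat, and their deviations from group means correlated by -0.0357 to 0.283 (median 0.115, 11 rats). In simulated counts edgeR found 97% of genes set to change by 1 and 100% of those set to change by 2 (log2) between strains (14177 genes tested), 85.6% and 96.9% between sides in WKY (14140), 86.6% and 100% in SHR (14159), and 78% and 98% for the interaction (14184). Unchanged genes called numbered 8, 8, 16 and 11 in the same order. Changes under 1, such as the side differences of the members, were not simulated, and neither was an effect shared by the CBs of a rat.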

Additional observations from a re-analysis of the deposited data

Results flagged for a closer look

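Among 35 groups of values tested for a value far from the rest, 4 passed, where chance alone flags about 1 in 20 groups. The groups share libraries and 3 of the 4 rest on 1 library, the right CB of SHR rat 34, so the 4 are not independent and cannot be set against that rate. Il18r1 in the left CB of SHR rat 30, at 8.77 CPM against 11.6 to 13.4 CPM in the other 5 left SHR CBs, had a gap of 0.666 of the range of its group on the log2(CPM + 0.5) scale. The right CB of SHR rat 34 passed for 3 genes when it was put back beside the other 5 right SHR CBs: Il18r1 with a gap of 0.737 of the range, Il18 with 0.908 and Il18rap with 0.951. In the right SHR CBs without it, no value of the 5 genes passed. Nlrx1 and Il1rl2 had no value that passed in any group.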

How the results depend on the processing

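The strain differences kept their direction under all 11 other settings and every rat left out: 1.62 to 2.38 for Il1rl2, 0.74 to 0.89 for Il18r1 and 0.45 to 0.53 for Nlrx1 on the log2 scale. The calls were not all kept: Il1rl2 was not called with left CBs alone, Nlrx1 with right CBs alone, or Il18rap with all 24 libraries. Since these genes were picked on this contrast, their calls are no test of them. All 115 strain values under an alternative, Il18 and Il18rap included, moved by less than 1 SD of the rats. Of the 191 other comparisons with an alternative, 170 kept direction and side of the threshold or stayed within 1.5 times a count. With all 24 libraries or with counts summed per rat, 1 of the unnamed rows near Il1rl2 was called instead of 2. Leaving out the right CB of WKY rat 41, a setting chosen after seeing the data, raised the SHR libraries of Nlrx1 above every WKY library from 4 to 11 of 11. Leaving out a rat moved side differences of Nlrx1 across 0, from -0.0060 to 0.168 in WKY and -0.0337 to 0.138 in SHR, and interactions from -0.130 to 0.0935 for Nlrx1 and -0.150 to 0.0840 for Il18r1. None of these was called. With the rat as a replicate block, in which the unpaired left CB of SHR rat 34 adds nothing, 1 gene was called between sides in SHR instead of 0, the Nlrx1 interaction was 0.0071 and no other call changed. Rat numbers shared by the strains do not pair rats (correlations of -0.223 to 0.0773 over 4 numbers), and a block on them gave 1.73 for Il1rl2, 0.75 for Il18r1 and 0.49 for Nlrx1. With left CBs alone, 6 correlations over rats changed sign: in WKY Il1rl2 and Nlrx1 to 0.545, Il18r1 and Il18rap to 0.183, Nlrx1 and Il18 to 0.341, Nlrx1 and Il18rap to 0.662 and Il18 and Il18rap to -0.145, and in SHR Il1rl2 and Nlrx1 to 0.410. The cause was not tested. Depth limits Il1rl2, at a mean of 5.75 counts in WKY, more than the other members.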
